A study of Mus musculus with 22 samples.

Results

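The 10 genes described here form the core of the Hippo pathway in the mouse and its nearest scaffolds: the kinases Lats1, Lats2, Stk3 and Stk4, the scaffolds Sav1, Nf2 and Wwc1, and the angiomotins Amot, Amotl1 and Amotl2. Members were taken by gene symbol. Of these 10, 9 had a probe set (a set of short probes against 1 transcript region) that the array annotation assigns to a single gene, out of 18193 such genes. Stk3 was not analysed here. The 9 genes had 28 probe sets among 34945 with a single gene symbol. For each gene the probe set whose 22 values averaged highest was taken, and the other probe sets are given beside it.

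Rex1GFPd2 cells, a line of mouse embryonic stem (ES) cells, were reverse-transfected with siRNA and profiled on 22 Affymetrix arrays, 1 array per sample. All groups received PD0325901, an inhibitor of the kinase MEK. The 2i control arm (7 arrays) kept PD0325901 together with CHIR99021, an inhibitor of the kinase GSK3, and carried siControl#1 (4 arrays) or siControl#2 (3 arrays). The PD-only control arm (7 arrays) carried the same control siRNAs, 4 and 3 arrays, and lost CHIR99021 at 24 hours after transfection. The PD-only siYAP/TAZ arm (8 arrays) changed medium in the same way and carried siYAP/TAZ#1 or siYAP/TAZ#2, 4 arrays each, against the coactivators YAP and TAZ. RNA of all arms was taken 72 hours after transfection. No group in 2i medium with siYAP/TAZ was analysed here, and the cells are 1 line. The labels call the arrays of a group biological replicates without saying what separates them, so p-values measure the spread between these samples.

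In the Hippo pathway the MST kinases (Stk3 and Stk4), held by the scaffold SAV1, phosphorylate and activate the LATS kinases, which phosphorylate YAP and TAZ and thereby keep them out of the nucleus or mark them for degradation. NF2 and WWC1 bring LATS to the membrane, where it is activated, and angiomotins bind YAP and TAZ through PPxY motifs and can hold them at junctions and at actin filaments. In the nucleus YAP and TAZ act with TEAD factors, and the genes of LATS2 and AMOTL2 are among the known targets of that complex in other cells, as part of a negative feedback. GSK3 acts in the beta-catenin destruction complex, and its inhibition lets beta-catenin reach TCF/LEF factors and supports self-renewal of mouse ES cells.

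Taking all probe sets, Amot, Amotl2 and Lats2 carried the widest differences between the arms. Lats2 did so only by probe sets other than the chosen one. Group means of its chosen probe set spanned 0.46, against 0.87 for Wwc1. For Amot, Amotl2 and Lats2 the 250 bases before the RefSeq transcription starts (build GRCm38.p6) are shown first. They read 5′ to 3′ on the strand of the gene. Capitals mark the TEAD motif (GGAATG, or CATTCC on the other strand) and the TCF/LEF motif (CTTTGA, or TCAAAG on the other strand). Neither motif overlapped the other in these windows.
Amot, chrX:145487640-145487889, minus strand: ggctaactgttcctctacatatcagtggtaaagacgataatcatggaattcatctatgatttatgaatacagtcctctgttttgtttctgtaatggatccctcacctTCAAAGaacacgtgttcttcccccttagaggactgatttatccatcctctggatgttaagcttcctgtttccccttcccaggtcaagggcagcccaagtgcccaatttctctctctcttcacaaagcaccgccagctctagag
Amotl2, chr9:102717554-102717803, plus strand: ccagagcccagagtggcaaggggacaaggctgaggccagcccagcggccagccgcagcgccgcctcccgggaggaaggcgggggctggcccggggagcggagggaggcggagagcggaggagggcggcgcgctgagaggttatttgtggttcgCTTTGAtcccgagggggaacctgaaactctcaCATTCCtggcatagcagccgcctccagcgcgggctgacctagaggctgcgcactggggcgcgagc
Lats2, first of 2 promoters, chr14:57746124-57746373, minus strand: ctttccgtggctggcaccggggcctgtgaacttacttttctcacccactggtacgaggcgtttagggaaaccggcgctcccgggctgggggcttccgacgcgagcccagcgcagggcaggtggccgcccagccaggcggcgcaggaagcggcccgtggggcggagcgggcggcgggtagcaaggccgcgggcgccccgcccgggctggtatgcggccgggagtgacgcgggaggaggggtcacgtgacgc
The Amot window held 1 TCF/LEF match, from 143 to 138 bases before the start and on the opposite strand, and no TEAD match. The Amotl2 window held a TCF/LEF match 97 to 92 bases before the start on the gene's own strand and a TEAD match 65 to 60 bases before it on the opposite strand. Neither of the 2 Lats2 windows held these letters. Promoters were listed for all 9 genes, 11 in all. A TEAD match stood in 2 of the 11 (Amotl2, and Sav1 at 106 to 101 bases before the start) and a TCF/LEF match in 3 (Amot, Amotl2 and the second promoter of Nf2, 138 to 133 bases before its start). Over all 32851 promoters of the table, windows of the same length held the TEAD motif in 12.6% and the TCF/LEF motif in 13.8%. A match is a description of the letters and shows no binding.

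Values are RMA log2 expression per probe set, and a difference of 1 is a factor of 2. Each comparison was a contrast in 1 limma fit over all genes, and a gene was called when its p, adjusted by Benjamini and Hochberg's method over all genes, was under 0.05. The siRNA targets themselves followed the labels. Yap1 had a median of 11.05 in PD-only control and of 9.76 under siYAP/TAZ, a difference of -1.27 ± 0.03 (SE), and Wwtr1, which encodes TAZ, differed by -1.04 ± 0.03. Both were also called lower in 2i control than in PD-only control, Yap1 by -0.15 ± 0.03 and Wwtr1 by -0.25 ± 0.03. The mean of 8 ES cell markers was 12.84 to 12.90 in 2i control, 12.32 to 12.37 in PD-only control and 12.67 to 12.71 under siYAP/TAZ, and none of the 8 (Dppa5a, Sox2 and Zfp42 the highest) lay below the median of all genes, 6.64, in any arm. Marker lists of other cell types were highest in PD-only control. The 7 fibroblast markers averaged 4.56 to 4.79 in 2i control, 6.67 to 6.81 in PD-only control and 4.66 to 4.82 under siYAP/TAZ, with 7, 4 and 7 of them below that median; Col1a2, Col1a1 and Thy1 were the highest. The 7 trophoblast markers averaged 5.71 to 5.80, 6.89 to 6.96 and 6.05 to 6.19 in the same order (6, 3 and 5 below the median; Tfap2c, Eomes and Gata3 the highest). The 6 primitive endoderm markers averaged 4.75 to 4.92, 5.47 to 5.67 and 4.65 to 4.90 (6, 5 and 6 below; Sox17, Dab2 and Pdgfra the highest). RMA gives no detection call, so no marker can be said to be at 0. The Actb 3′ minus 5′ control value, a measure of RNA quality, averaged 0.966 in 2i control, 0.717 in PD-only control and 0.975 under siYAP/TAZ; PD-only control differed from both other arms (two-sided exact permutation test, adjusted p = 0.000874 for each over 3 tests), and the other 2 arms differed by 0.00929 (adjusted p = 0.865). The list means rest on few genes. In the fibroblast list Col1a2, Col1a1 and Postn differed most. Thy1 was highest under siYAP/TAZ (5.55, 6.06 and 6.14), and Lum changed little (3.23, 3.13 and 3.18). Under siYAP/TAZ 5 of the 7 were lower than in PD-only control and 2 were not called (median -1.88), where 26.3% of all genes were lower. In the primitive endoderm list Dab2 had arm means of 4.97, 8.04 and 4.465, while Gata4, Sox7 and Sox17 were not called in any comparison, and the list's median difference under siYAP/TAZ from PD-only control was -0.095. In the trophoblast list Krt7 and Gata3 were lower in both other arms than in PD-only control, but Cdx2 was higher in both (5.81, 5.27 and 6.32) and Tfap2c was higher under siYAP/TAZ; 2 of the 7 were higher and 3 lower there (median -0.075). The mean of each of the 3 lists and the Actb value set PD-only control apart from the other arms, as several Hippo genes did. In bulk samples a change in the share of a cell type and a change of RNA per cell cannot be told apart. The part of the marker lists in the differences below was not tested, and values with the Actb value as a covariate are given where they bear on a gene. The Actb value lay at 0.66 to 0.75 in PD-only control, 0.87 to 1.19 in 2i control and 0.88 to 1.07 under siYAP/TAZ. This covariate therefore goes with the arm, and a call kept or lost under it cannot tell RNA quality from the arm.

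Removal of CHIR99021 with control siRNA went with more angiomotin RNA, and depletion of YAP and TAZ in the same medium went with less of it. Between 2i control and PD-only control, 2 of the 9 genes were higher in 2i (Lats1, Nf2), 6 were lower (Lats2, Sav1, Wwc1, Amot, Amotl1, Amotl2) and Stk4 was not called. Over all genes 31.3% were called higher and 26.7% lower in that comparison, 58% in either direction. Between PD-only siYAP/TAZ and PD-only control, 1 was higher (Nf2), 7 were lower and Stk4 was not called, against 35.5% higher and 26.3% lower of all genes, 61.8% in either direction. Of the 9, Amot and Amotl2 were lower by 2-fold or more in both comparisons, as were 4.12% of all genes in the first and 4.47% in the second. None of the 9 was higher by 2-fold or more, against 1.69% and 1.9% of all genes. The median difference of the 9 genes was -0.22 in the first comparison and -0.39 in the second, and that of all genes 0.044 and 0.061. Both comparisons use the same 7 PD-only control arrays, so their values are not independent. The direct contrast of PD-only siYAP/TAZ with 2i control is also the test of the difference between them. There 1 gene was higher (Nf2), 5 were lower (Lats1, Sav1, Wwc1, Amotl1, Amotl2) and 3 were not called (Lats2, Stk4, Amot), against 25.5% and 22.8% of all genes, 48.3% in either direction. None of the 9 reached 2-fold there, against 0.632% of all genes higher and 0.879% lower by that size.

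**Figure D1:**
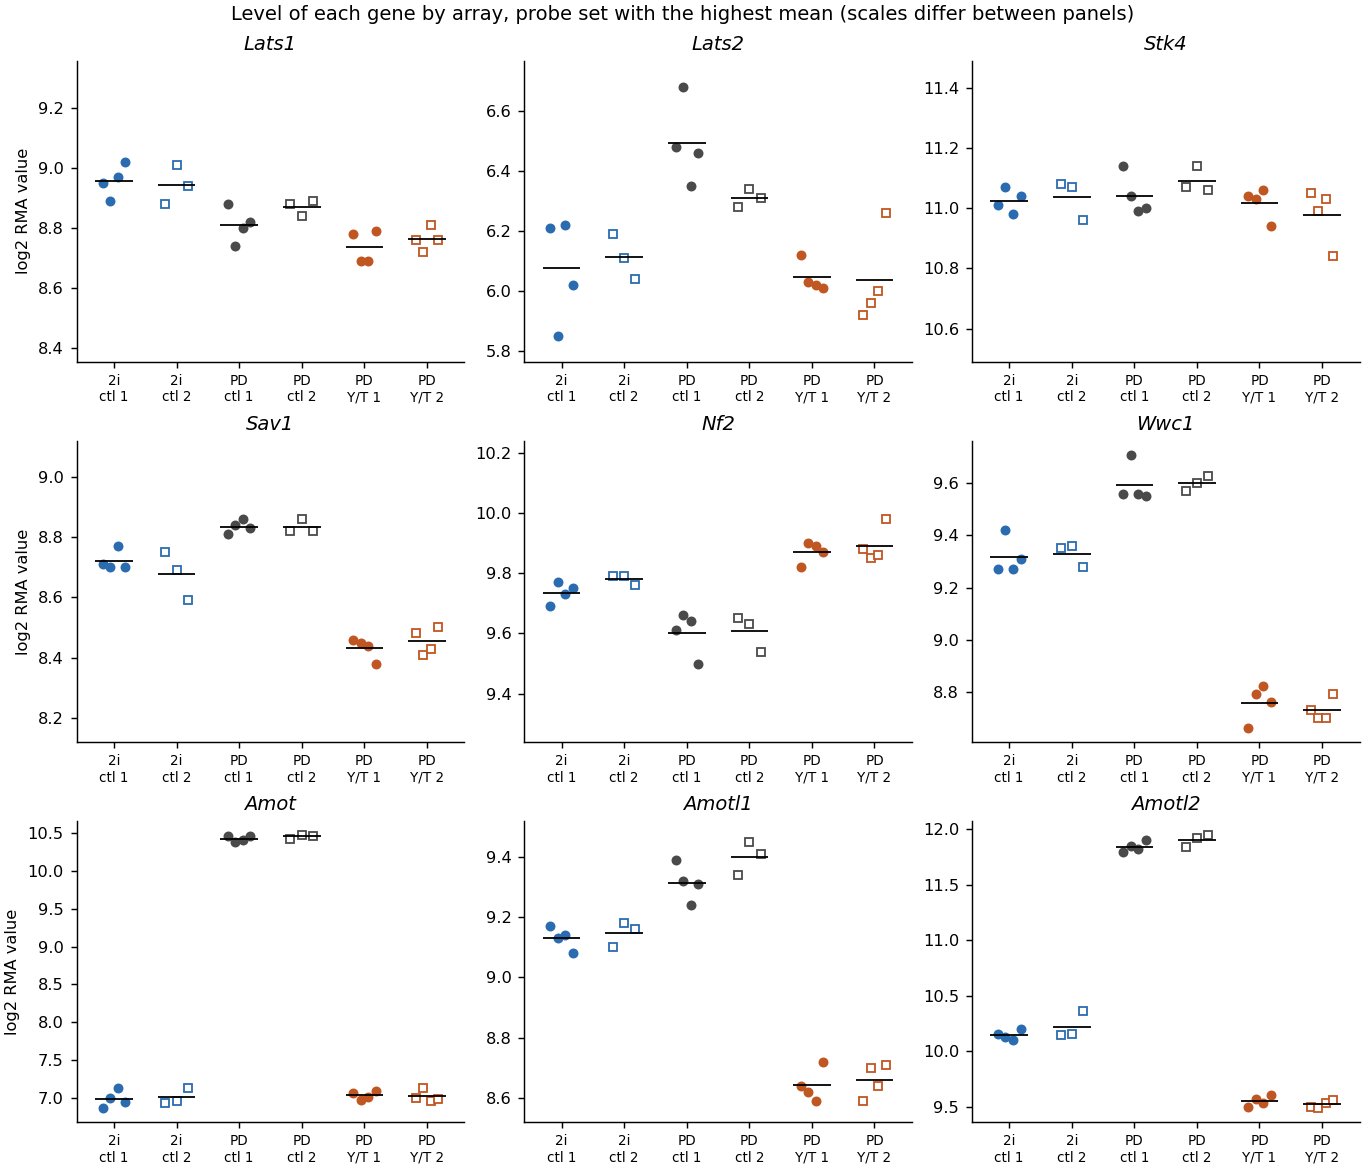
RMA log2 value of each of the 9 genes (y axis, scales differ between panels) on every array, by group of medium and siRNA (x axis); points are arrays and bars are group means. Amot lies between 10.38 and 10.48 in PD-only control and between 6.86 and 7.13 in both other arms, while Amotl2, Amotl1 and Wwc1 are lowest under siYAP/TAZ.

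Amot (probe set 1454890_at), the founding angiomotin, which binds YAP and actin, had the largest differences from PD-only control among the chosen probe sets of the 9 genes. Its log2 level was 6.86, 6.96 and 7.13 (lowest, median, highest) in 2i control, 10.38, 10.46 and 10.48 in PD-only control, and 6.96, 7.005 and 7.13 under siYAP/TAZ. All 7 PD-only control arrays stood above all 15 others, and the arrays of the other arms overlapped. The 2i control arm was lower than PD-only control by a log2 difference of -3.45 ± 0.04 (SE; 10.9-fold; limma adjusted p = 3.53e-23), and the siYAP/TAZ arm by -3.42 ± 0.04 (10.7-fold; limma adjusted p = 2.33e-23). The siYAP/TAZ arm and 2i control differed by 0.029, with a 95% interval of -0.054 to 0.11 (limma adjusted p = 0.602), so any difference between the depleted cells and the cells that kept CHIR99021 was small beside either change. Groups that differ only in siRNA lay close together: the mean was 10.43 ± 0.04 (SD, n = 4) with siControl#1 and 10.46 ± 0.03 (n = 3) with siControl#2 in PD-only medium, and 7.03 ± 0.05 (n = 4) and 7.02 ± 0.08 (n = 4) with the siYAP/TAZ mixes. The other 2 Amot probe sets, with array values between 4.60 and 5.17, were not called in any of the 3 comparisons, and the mean of the 3 probe sets differed by -1.14 and -1.13 in the first pair of comparisons. With the Actb value as a covariate the differences were -3.55 and -3.52.

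Amotl2, the angiomotin that is a known YAP target in other cells, had a single probe set (1452387_a_at) and a graded pattern. Its level was 10.10, 10.16 and 10.36 in 2i control, 11.80, 11.85 and 11.95 in PD-only control, and 9.49, 9.54 and 9.61 under siYAP/TAZ. No arm overlapped another, with PD-only control highest and siYAP/TAZ lowest. It fell in 2i control by 1.69 ± 0.03 on the log2 scale (3.22-fold; limma adjusted p = 9.29e-20) and under siYAP/TAZ by 2.33 ± 0.03 (5.04-fold; limma adjusted p = 2.76e-22), each against PD-only control. Unlike Amot, Amotl2 was lower under siYAP/TAZ than in 2i control, by -0.65 ± 0.03 (1.57-fold; limma adjusted p = 1.12e-12). The differences were -1.78 and -2.42 with the Actb value as a covariate.

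Amotl1 (1428785_at), the remaining angiomotin, followed the same order with smaller differences. Its level was 9.08, 9.14 and 9.18 in 2i control, 9.24, 9.34 and 9.45 in PD-only control, and 8.59, 8.64 and 8.72 under siYAP/TAZ. The arms did not overlap. Against PD-only control it was lower by -0.22 ± 0.03 in 2i control (limma adjusted p = 3.25e-06) and by -0.71 ± 0.03 under siYAP/TAZ (1.63-fold; limma adjusted p = 2.01e-14), and siYAP/TAZ was below 2i control by -0.49 ± 0.03. A second probe set (1455247_at) gave -0.25, -0.48 and -0.24, all called, and the remaining one (1431121_at) was not called in any. All 3 angiomotins were thus highest in PD-only control, and Amotl1 and Amotl2, but not Amot, were lower under siYAP/TAZ than in 2i control.

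**Figure D2:**
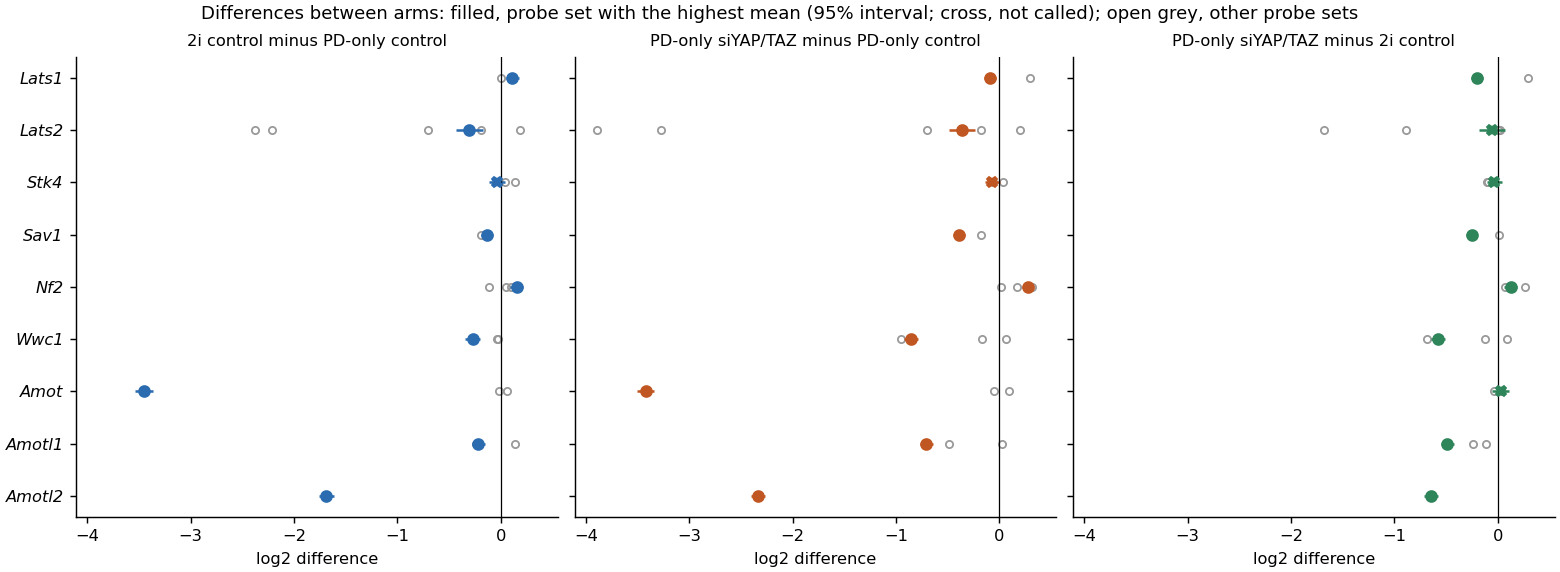
Log2 difference of each gene (x axis) in the 3 comparisons (panels), with 95% intervals for the probe set with the highest mean (filled; a cross where not called) and the other probe sets as open grey points. Amot and Amotl2 lie at -3.45 and -1.69 in the first panel and -3.42 and -2.33 in the second, and the grey Lats2 points spread from 0.20 to -3.90.

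The kinase Lats2, which phosphorylates YAP and TAZ and is itself a known YAP target in other cells, depended on the probe set. The probe set with the highest mean (1419678_at) read 5.85, 6.11 and 6.22 in 2i control, 6.28, 6.35 and 6.68 in PD-only control, and 5.92, 6.015 and 6.26 under siYAP/TAZ. PD-only control was above all other arrays by a small margin, and the other arms overlapped. Its differences were -0.31 ± 0.06 in 2i control (limma adjusted p = 0.000272) and -0.36 ± 0.06 under siYAP/TAZ (limma adjusted p = 2.72e-05) against PD-only control, and -0.054 between siYAP/TAZ and 2i control (95% interval -0.18 to 0.073; not called). This probe set is dim: its highest arm mean, 6.41, lies below the median of all genes, and with the Actb value as a covariate both of its calls were lost (adjusted p = 0.195 and 0.0925).

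Another pair of Lats2 probe sets moved much further. Probe set 1439441_x_at read 5.20, 5.36 and 5.73 in 2i control, 7.57, 7.63 and 7.75 in PD-only control, and 3.44, 3.77 and 4.03 under siYAP/TAZ. Probe set 1437101_at read 4.41, 4.86 and 5.01, then 7.11, 7.15 and 7.28, then 3.59, 3.89 and 4.13 in the same arms. In both, no arm overlapped another, and the order was that of Amotl2. By its suffix 1439441_x_at is of the classes (_s_at and _x_at) left out in an alternative below as possibly cross-hybridising, and 1437101_at is not. The siYAP/TAZ values of both, and the 2i control values, lie below the median of all genes and in a range where RMA gives no detection call and compresses differences, so the size of these differences is uncertain. The differences for 1439441_x_at were -2.21 ± 0.08 in 2i control (4.64-fold; limma adjusted p over all probe sets = 4.62e-15), -3.90 ± 0.08 under siYAP/TAZ (14.9-fold; 1.60e-19) and -1.68 ± 0.08 between siYAP/TAZ and 2i control (7.16e-13). Those for 1437101_at were -2.38 ± 0.09 (2.41e-15), -3.27 ± 0.08 (5.10e-18) and -0.89 ± 0.08 (2.19e-08). With the Actb value as a covariate the first 2 differences of 1439441_x_at were -2.44 and -4.12, both called. The mean over all 22 arrays of each of these probe sets is lower than that of the chosen one, which is why neither stands for the gene. Picking by the highest arm mean, a choice made after seeing the data, took 1439441_x_at for Lats2 and changed no other of the 9 genes, against 241 of all genes. The remaining 3 probe sets were dim, with arm means between 3.26 and 5.05. Of these, 1425420_s_at was lower by -0.70 in both comparisons with PD-only control and 1426156_at by -0.19 and -0.18. Probe set 1419679_at was higher by 0.19 and 0.20. All of these differences were called. None of these 3 was called between siYAP/TAZ and 2i control. In 2i medium 1419679_at averaged 3.29 with siControl#1 and 3.60 with siControl#2, against 3.28 and 3.25 in PD-only medium. Between the control siRNAs in 2i, 1419679_at differed by 0.31 and 1426156_at by -0.26 (neither called). Each is larger in size than that probe set's differences from PD-only control. The medium difference of 1425420_s_at differed by -0.47 between the control siRNAs (not called). Thus all 6 Lats2 probe sets were called in both comparisons with PD-only control, 5 as lower and 1 as higher. Of all probe sets 54.5% and 56.6% were called there in either direction (44.3% between siYAP/TAZ and 2i control). The share called lower was not counted over probe sets. Over genes, by the chosen probe set, it was 26.7% and 26.3%. The 5 include dim probe sets with small differences.

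**Figure D3:**
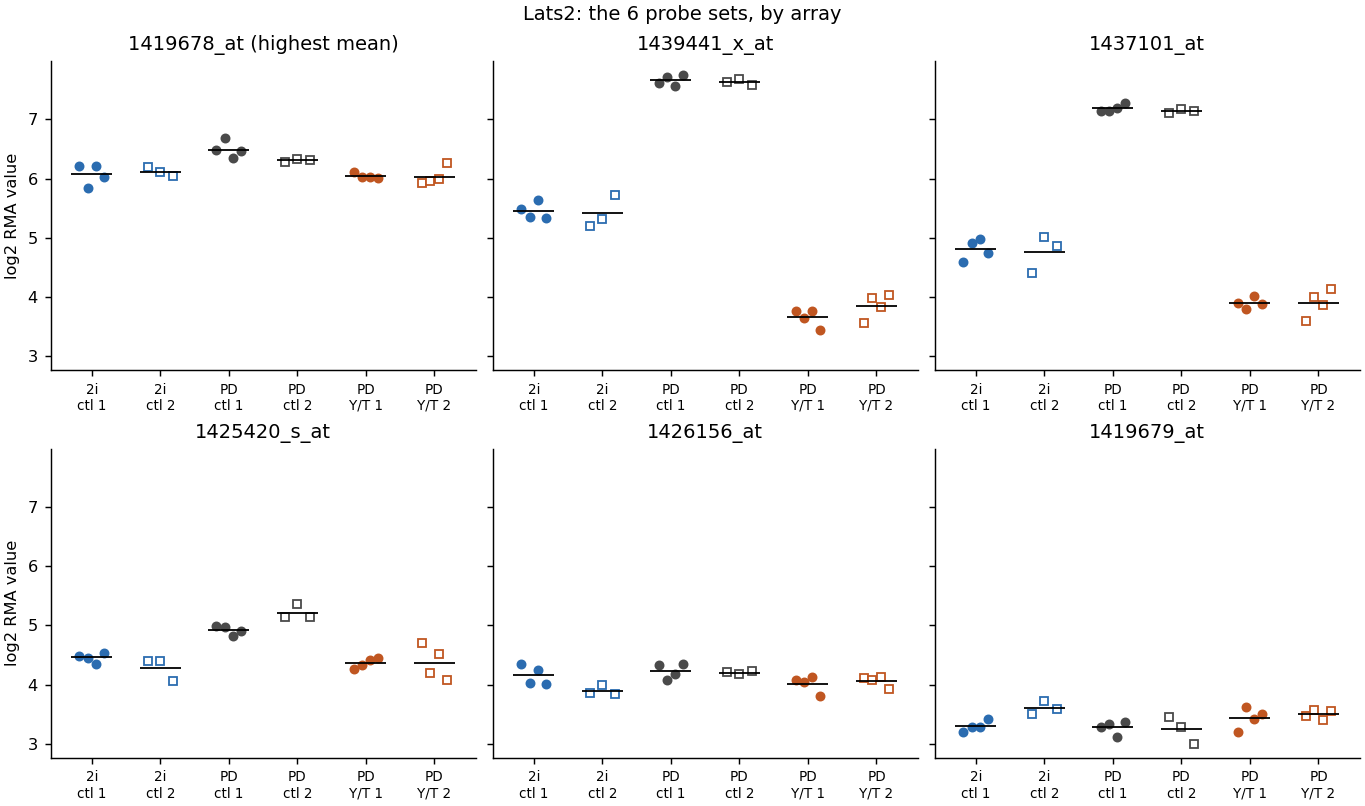
RMA log2 value (y axis) of the 6 probe sets of Lats2 on every array, by group of medium and siRNA (x axis); points are arrays and bars are group means. Probe sets 1439441_x_at and 1437101_at are highest in PD-only control (7.57 to 7.75 and 7.11 to 7.28) and lowest under siYAP/TAZ, and the probe set with the highest mean spans less than 1 log2 unit.

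Lats1 (1435739_at), the paralogue of Lats2, changed little. It read 8.88, 8.95 and 9.02 in 2i control, 8.74, 8.84 and 8.89 in PD-only control, and 8.69, 8.76 and 8.81 under siYAP/TAZ. Arrays of neighbouring arms overlapped, and 2i control stood above siYAP/TAZ on every array. The differences were 0.11 ± 0.03 in 2i control (limma adjusted p = 0.00380) and -0.090 ± 0.03 under siYAP/TAZ (limma adjusted p = 0.0116) against PD-only control, and -0.20 ± 0.03 between siYAP/TAZ and 2i control (limma adjusted p = 6.88e-06). The call in 2i control was lost with the Actb value as a covariate (limma adjusted p = 0.0707), with siControl#2 alone (0.210) and with the mean of both probe sets (0.278). That under siYAP/TAZ against PD-only control was lost with the Actb covariate (0.356), siControl#1 alone (0.146), siYAP/TAZ#2 alone (0.0694) and repeated quantile normalization (0.0598). It also missed the stricter threshold of 0.01. The second Lats1 probe set (1427679_at) went the other way under siYAP/TAZ, by 0.29 against PD-only control and by 0.29 against 2i control, and did not pass the test between the media (-0.0021). With the mean of both probe sets the direction under siYAP/TAZ turned. It was 0.10 against PD-only control (called, limma adjusted p = 0.0342) and 0.047 against 2i control (not called). Subtracting array medians gave 0.047 for siYAP/TAZ against PD-only control, so no direction under siYAP/TAZ is settled for Lats1.

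Stk4 (1436015_s_at), which encodes the kinase MST1 that activates LATS, was not called in any comparison by its chosen probe set and the fit used here. It read 10.96, 11.04 and 11.08 in 2i control, 10.99, 11.06 and 11.14 in PD-only control, and 10.84, 11.03 and 11.06 under siYAP/TAZ, with all arms overlapping. The 95% interval of its difference was -0.11 to 0.040 in 2i control and -0.14 to 0.0041 under siYAP/TAZ against PD-only control, and -0.11 to 0.039 between siYAP/TAZ and 2i control. Of its other 2 probe sets, 1434159_at was lower under siYAP/TAZ than in 2i control, at -0.098 (limma adjusted p over all probe sets = 0.0357), and no other difference of the 2 was called. Some alternatives called Stk4, with small differences. It was higher in 2i control with array medians subtracted (limma adjusted p = 0.0423) and lower under siYAP/TAZ than in PD-only control with trended, robust eBayes (0.0357). It was lower under siYAP/TAZ than in 2i control on averaging probe sets (0.0211) or leaving out _s_at and _x_at probe sets (0.0291). Leaving these out removes the chosen probe set of Stk4, and 1434159_at then stands for the gene.

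Sav1 (1448204_at), the scaffold of the MST kinases, read 8.59, 8.70 and 8.77 in 2i control, 8.81, 8.83 and 8.86 in PD-only control, and 8.38, 8.445 and 8.50 under siYAP/TAZ. The arms did not overlap, in the order PD-only control, 2i control, siYAP/TAZ. The differences from PD-only control were -0.14 ± 0.03 in 2i control (limma adjusted p = 0.000174) and -0.39 ± 0.03 under siYAP/TAZ (1.31-fold; limma adjusted p = 3.20e-11), and siYAP/TAZ was below 2i control by -0.25 ± 0.03. The call in 2i control was lost with array medians subtracted (-0.015) and with the Actb value as a covariate (-0.071). The second probe set (1416075_at) gave -0.19, -0.18 and 0.014, the last not called, so the step from 2i control to siYAP/TAZ was seen in 1 of the 2.

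Nf2 (1421820_a_at), which encodes merlin, the membrane-linked tumour suppressor that recruits LATS, was the one gene of the 9 that was highest under siYAP/TAZ. It read 9.69, 9.76 and 9.79 in 2i control, 9.50, 9.63 and 9.66 in PD-only control, and 9.82, 9.875 and 9.98 under siYAP/TAZ. The arms did not overlap. Nf2 was higher by 0.15 ± 0.03 in 2i control (limma adjusted p = 0.000178) and by 0.28 ± 0.03 under siYAP/TAZ (1.21-fold; limma adjusted p = 4.57e-08) than in PD-only control, and by 0.12 ± 0.03 under siYAP/TAZ than in 2i control (limma adjusted p = 0.00122). Probe set 1450382_at gave 0.049 (not called), 0.31 and 0.27. Probe set 1451829_a_at gave 0.10 (not called), 0.17 (called) and 0.071 (not called). Probe set 1427708_a_at was lower by -0.12 in 2i control, at 0.012 under siYAP/TAZ (not called) and higher by 0.13 between siYAP/TAZ and 2i control. The higher level under siYAP/TAZ than in PD-only control was thus called in 3 of 4 probe sets, and the difference between the media in opposite directions in 2. On averaging all probe sets the call in 2i control was lost (adjusted p = 0.0930).

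Wwc1 (1420008_s_at), which encodes KIBRA, the partner of merlin at the membrane, read 9.27, 9.31 and 9.42 in 2i control, 9.55, 9.57 and 9.71 in PD-only control, and 8.66, 8.745 and 8.82 under siYAP/TAZ. The arms did not overlap, and siYAP/TAZ was far below both controls. The differences from PD-only control were -0.27 ± 0.03 in 2i control (limma adjusted p = 6.52e-07) and -0.85 ± 0.03 under siYAP/TAZ (1.81-fold; limma adjusted p = 4.84e-15), and siYAP/TAZ was below 2i control by -0.58 ± 0.03 (limma adjusted p = 8.08e-12). Probe set 1427261_at gave -0.27, -0.95 and -0.68, all called. The other 2 Wwc1 probe sets, with array values of 2.80 to 4.46, were dim, and 1 call was made among their 6 differences.

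Arrays of the arms did not overlap for 7 of the 9 genes in 2i control against PD-only control, where 37.6% of all genes did not overlap, for 7 under siYAP/TAZ against PD-only control (40.4%) and for 6 under siYAP/TAZ against 2i control (28.3%). Within an arm the siRNA made no difference that was called. Between the siYAP/TAZ mixes, between the control siRNAs in each medium and in the interaction of medium with control siRNA, limma called 0 of 18193 genes in each of 4 contrasts; 648, 769, 1450 and 949 genes had an unadjusted p under 0.05, none of the 9 among them. By the chosen probe sets, the largest difference among the 9 was 0.040 in size between the siYAP/TAZ mixes. Between control siRNAs in PD-only medium it was -0.18 for Lats2 (95% interval -0.37 to 0.0038). The 95% interval for the siYAP/TAZ mixes was -0.13 to 0.10 for Amot and -0.12 to 0.060 for Amotl2.

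The other genes of the pathway moved in both directions, apart from the membrane inputs, which were mostly lower than in PD-only control. Of 19 genes at the membrane, in polarity complexes and at junctions, all measured, 14 were lower and 2 higher in 2i control, and 15 lower and 2 higher under siYAP/TAZ, with medians of -0.27 and -0.46. Of all genes 26.7% and 26.3% were lower, and 31.3% and 35.5% higher. Under siYAP/TAZ against 2i control 12 were lower and 2 higher (median -0.20, all genes 0.015), where 22.8% of all genes were lower and 25.5% higher. Ptpn14, a phosphatase that binds YAP, was the lowest at -2.10 ± 0.03 in 2i control and -2.51 ± 0.03 under siYAP/TAZ. The polarity genes Pard6b (-1.89 ± 0.05 in 2i control) and Patj (-2.10 ± 0.08 under siYAP/TAZ) were the next. Magi1, a junction scaffold, was higher by 0.37 ± 0.05 and 0.17 ± 0.05. Pard3, another polarity gene, was higher by 0.16 ± 0.04 in 2i control, and Llgl1 by 0.26 ± 0.02 under siYAP/TAZ.

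Of 17 kinases and adaptors next to the core cascade, 15 were measured, and 8 were higher and 4 lower in 2i control and 9 higher and 5 lower under siYAP/TAZ, with medians of 0.10 and 0.26. The shares of all genes were 31.3% higher and 26.7% lower in 2i control, and 35.5% and 26.3% under siYAP/TAZ. Tnik, a MAP4K-family kinase that also acts with TCF4, was higher by 1.16 ± 0.06 and 1.70 ± 0.06, and Stk38, the LATS-like kinase NDR1, by 0.88 ± 0.02 and 0.98 ± 0.02. Rassf1, a partner of the MST kinases, was lower by -1.24 ± 0.04 and -1.39 ± 0.03, and Map4k5, another LATS-activating kinase, by -1.04 ± 0.03 and -1.02 ± 0.03.

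For STRIPAK, the phosphatase complex that inactivates MST kinases, 13 genes were measured. In 2i control 6 were higher and 5 lower, and under siYAP/TAZ 4 were higher and 7 lower (medians 0.037 and -0.067); with array medians subtracted the lower counts were 2 and 3. Of all genes 31.3% were higher and 26.7% lower in the first comparison, and 35.5% and 26.3% in the second, the same background as for the enzymes that follow. The adaptor Sike1 was higher by 0.15 and 0.20, and the kinase Stk24 by 0.18 and 0.19. Stk25, a related kinase, was lower by -0.365 and -0.358, Strn3, a striatin scaffold, by -0.34 in 2i control, and the kinase Stk26 by -1.10 ± 0.04 under siYAP/TAZ. Of 13 ubiquitin, ADP-ribose and casein kinase enzymes, all measured, 6 were higher and 3 lower in 2i control and 3 higher and 4 lower under siYAP/TAZ (medians 0.071 and -0.00042); with array medians subtracted the higher counts were 10 and 9. Btrc, the ubiquitin ligase subunit that recognises phosphorylated YAP, TAZ and beta-catenin, was higher by 0.42 ± 0.05 and 0.53 ± 0.05. Nedd4l, a ligase that binds angiomotins, was lower by -0.65 ± 0.03 and -0.51 ± 0.03. Nedd4 was higher by 0.29 in 2i control and Siah2 by 0.12 under siYAP/TAZ. Of the casein kinases, Csnk1d was lower by -0.27 in 2i control and Csnk1e by -0.49 under siYAP/TAZ.

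**Figure D4:**
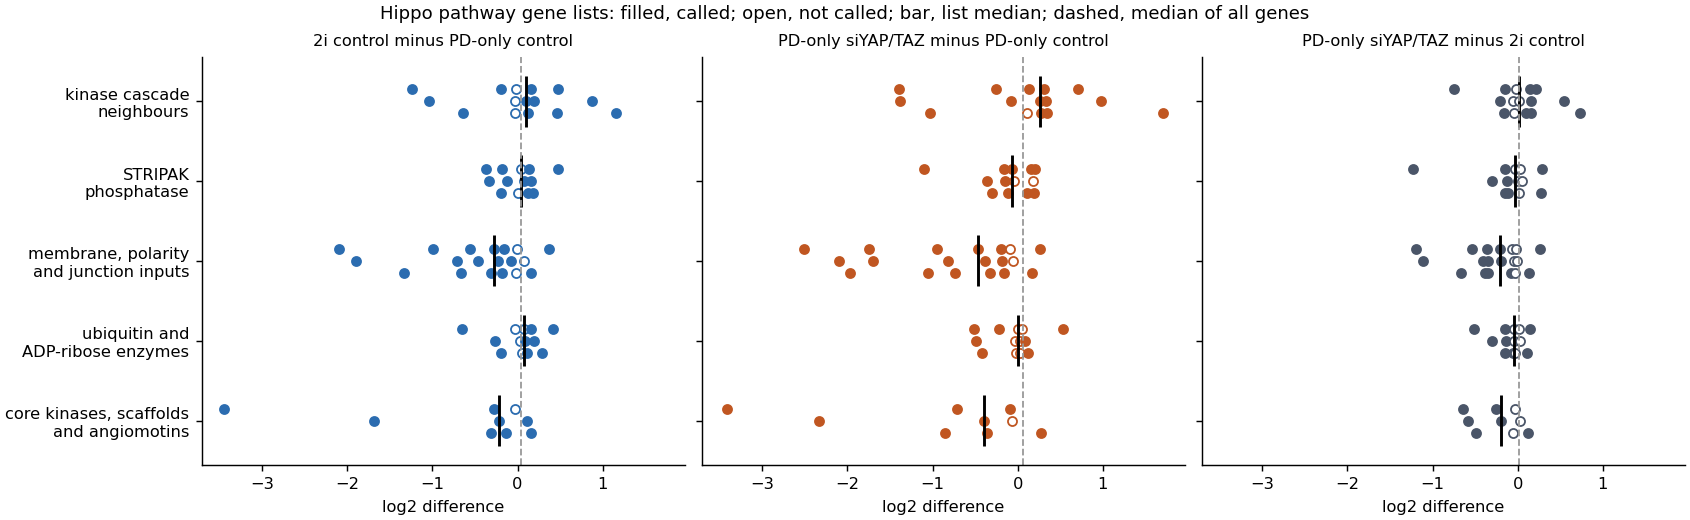
Log2 difference (x axis) of each gene of 4 pathway lists and of the 9 genes (y axis), in the 3 comparisons (panels); filled points were called, open ones not, bars are list medians and the dashed line the median of all genes. The membrane, polarity and junction inputs have medians of -0.27, -0.46 and -0.20, and the other lists lie on both sides of 0.

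Among all genes with a highest arm mean at or above 6.64, the genes nearest to Amot over the 22 arrays, each centred on its own mean, were Cldn7, Nrk, Lrp2, Eya4 and Podxl, at root mean square distances of 0.129, 0.136, 0.139, 0.139 and 0.163 log2 units. Their log2 differences from PD-only control ranged from -3.71 to -3.14 in 2i control and from -3.62 to -3.16 under siYAP/TAZ. Those nearest to Amotl2 were Rnd3, Rbms1, Noct, Ly6g6e and Msrb3, at 0.088, 0.099, 0.111, 0.122 and 0.123. Theirs ranged from -1.85 to -1.47 in 2i control and from -2.36 to -2.15 under siYAP/TAZ. The distance is a description with no test, and all arrays of an arm share its condition. These genes were chosen by distance over the same values, so differences near those of Amot and Amotl2 follow from the choice. Cldn7, Eya4 and Msrb3 reached 6.64 only in PD-only control. Eya4, at the -3.71 end, had arm means of 3.34 in 2i control and 3.44 under siYAP/TAZ. By the chosen probe sets no other of the 9 genes had group means that spanned 1 log2 unit, and Wwc1, the next, spanned 0.87; the Lats2 probe sets 1439441_x_at and 1437101_at, which span more, were not used for this measure.

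**Figure D5:**
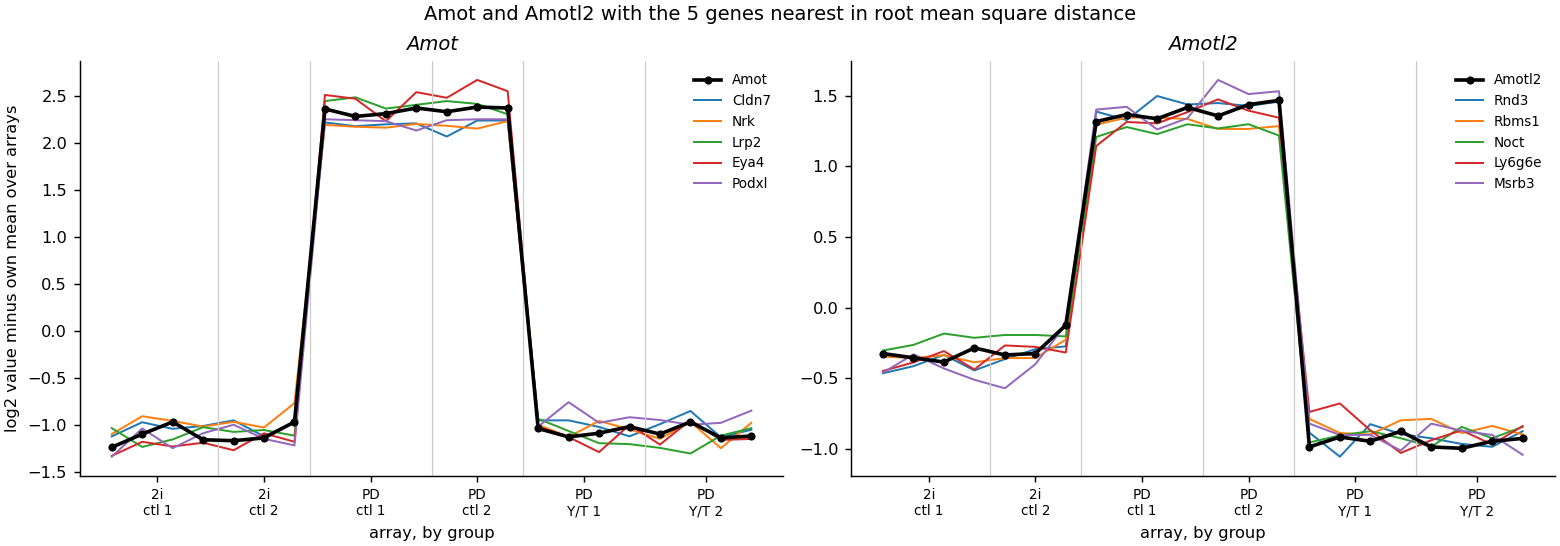
Log2 value minus the gene's own mean (y axis) on each of the 22 arrays, by group (x axis), for Amot (left, black) and Amotl2 (right, black) with the 5 nearest genes of each (colours). In the left panel the 2i control and siYAP/TAZ arrays lie at the same height, and in the right panel siYAP/TAZ lies lower.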

How the data were processed

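Total RNA of 22 cultures was extracted with Trizol, biotin-labelled with a 3′ IVT kit and hybridised to 1-colour Affymetrix mouse arrays, per the labels' protocols. The deposited log2 values per probe set were made by the authors with RMA, per the submitters' processing notes; the RMA version is not given in the sources used here, and no scan date was used. RMA equalises the arrays' distributions and compresses differences of dim probe sets. Array medians lay between 5.51 and 5.55, and no pair of arrays was identical.

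Of 45101 probe sets, 34945 have 1 gene symbol in the platform annotation; 932 with several symbols were left out. A model with 1 mean for each of 6 groups, with 16 degrees of freedom left and 3.1 added by the prior, was fitted over 18193 genes by lmFit and eBayes of limma 3.58.1, run in R 4.3.3, and arms were compared as averages of their siRNA groups. Other probe sets came from the same fit over all 34945, adjusted over all of these. Errors of differences are standard errors. The script was tested on simulated data.

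Members, lists and tests were chosen with earlier results of these data known. Pathway genes are named by a rule: for each list and each comparison with PD-only control, up to 2 highest and 2 lowest called genes whose higher arm mean reaches the median of all genes; the 3 markers with the highest mean per list; and the 5 genes nearest to a member whose group means span 1 log2 unit. Promoters are RefSeq's (GRCm38.p6); proteins were not used here. Alternatives were the probe set choice, normalization, centring, variance model, array weights, blocks, the Actb covariate, single siRNAs, the threshold and leaving out each array.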

Additional observations from a re-analysis of the deposited data

Results flagged for a closer look

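In groups of 4 arrays, the highest or lowest array was compared with the rest by Dixon's criterion for the chosen probe set of each of the 9 genes and for the Lats2 probe sets 1437101_at and 1439441_x_at. Of 44 groups tested, 2 had such an array, and chance gives about 1 in 20. For Sav1, replicate C of 2i siControl#1 read 8.77 while the others lay at 8.70 to 8.71. For Wwc1, replicate B of PD-only siControl#1 read 9.71 while the others lay at 9.55 to 9.56. Neither array changed a call of Sav1 or Wwc1 when it was left out.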

How the results depend on the processing

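Amot, Amotl1, Amotl2 and Wwc1 kept direction and call in all comparisons under every alternative run. Leaving out each array in turn changed no call of a member: genes called ranged from 10120 to 10570 in 2i control, 10763 to 11381 under siYAP/TAZ and 8511 to 8797 between siYAP/TAZ and 2i control. Averaging all probe sets turned Stk4 in 2i control to 0.049 and Lats1 under siYAP/TAZ to 0.10 against PD-only control and 0.047 against 2i control; members called higher were then 0 in 2i control and 2 under siYAP/TAZ. Leaving out _s_at and _x_at probe sets, by suffix alone, replaced the chosen probe sets of Stk4 and Wwc1. It turned Stk4 in 2i control to 0.042. Subtracting array medians turned Stk4 to 0.085 in 2i control, where it was then called (adjusted p = 0.0423) and members called higher numbered 3, and to 0.068 under siYAP/TAZ, and Lats1 under siYAP/TAZ to 0.047. That centring moved the median of all genes from 0.044 to 0.16, 0.061 to 0.20 and 0.015 to 0.032 in the 3 comparisons, and the share of calls that were higher from 54%, 57.4% and 52.9% to 75.2%, 77.8% and 57%. Members called higher in 2i control numbered 1 with the Actb covariate and 1 with control siRNA 2 alone, where Lats1 lost its call. Trended, robust eBayes called 1 gene between control siRNAs in PD-only medium and 2 in 2i. With 2i control against PD-only control, Lats2 by its chosen probe set lost its call with control siRNA 2 alone (adjusted p = 0.101) and was not tested once dim genes were left out, and it became lower under siYAP/TAZ than in 2i control on averaging probe sets (-0.43) or taking the highest arm mean (-1.68). The labels do not say whether the replicate letters pair the arrays. Correlations between arrays of different groups were taken over genes, on deviations from group means. Their median was 0.0019 for the same letter (51 pairs, 2 over 0.1) and -0.0020 for different letters (150 pairs, 4 over 0.1). By their mean, 5 of 22 arrays correlated best with their own letter. No sign of pairing was seen, though low correlations cannot show that the arrays were unpaired. A fit with the letter as a replicate block called 10542, 11261 and 8714 genes in the 3 comparisons. Precision is limited by how many arrays there are. The cause of these shifts was not tested.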

Other observations

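Between siYAP/TAZ and 2i control, arms that differ in both medium and siRNA, 6 genes of the pathway lists differed by more than 0.6 on the log2 scale; they were chosen after their values were seen. Stk26, a kinase of the STRIPAK complex, was lower by -1.23 ± 0.04 (SE), with arm means of 7.72 under siYAP/TAZ and 8.95 in 2i control. Crb3 and Patj, both of the Crumbs polarity complex, were lower by -1.20 ± 0.05 and -1.11 ± 0.08. Rassf6, a partner of MST kinases, was lower by -0.75 ± 0.06, and Wwc2, the paralogue of Wwc1, by -0.67 ± 0.04. Map4k1, a kinase of the family that can activate LATS, was higher by 0.73 ± 0.05. All 6 were called by limma. Rassf6 (arm means of 4.99 under siYAP/TAZ and 5.73 in 2i control) and Patj (5.21 and 6.32) were dim. Both lay below the median of all genes, 6.64, in these arms, as did Crb3 under siYAP/TAZ (6.04). The size of these differences is therefore uncertain.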
